A study of Mus musculus with 15 samples.

Results

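The comparison described here is that of trigeminal ganglia (TG) from mice treated with RvD6si with TG from mice treated with vehicle, which makes 10 of the 15 samples of the series, 5 in each group. RvD6si is an isomer of resolvin D6 that was isolated from mouse tears and corneas after treatment with pigment epithelium-derived factor and docosahexaenoic acid (DHA), and the vehicle samples are its control. All groups were male CD1 mice aged 10 weeks whose right cornea had been wounded by removing the epithelium and the anterior stroma inside a trephine mark, so no uninjured TG enters the comparison. Drops were given to the eye 3 times a day for 12 days, after which the TG of the injured side was taken for RNA sequencing. The other 5 samples, treated with RvD6, the standard lipid, were kept in the fit to estimate the spread. They are used below only for a direct test of single genes and for the direction of the called genes. Samples are named by their replicate numbers, 1 to 5 for vehicle and 11 to 15 for RvD6si.

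The TG holds the cell bodies of the sensory neurons whose axons end in the cornea as free nerve endings. Each neuron is wrapped by satellite glia, the axons are ensheathed by myelinating and non-myelinating Schwann cells, and vessels, connective tissue and resident macrophages lie between them. After an axon is cut at its ending, the neuron has to send membrane, cytoskeleton and RNA along the axon to rebuild it, which draws on the endoplasmic reticulum, on endosomal transport and on mitochondria. Resolvins are lipid mediators that cells form from DHA and that are known for limiting inflammation. The question behind the comparison is which genes of the ganglion differ when the wounded eye has received RvD6si.

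Total read counts were 7421910 to 9903396 per vehicle sample and 4125962 to 8762636 per RvD6si sample, and replicate 15 had the lowest total. The expression values below are normalized counts, that is, read counts divided by a size factor for each library. The neuronal markers of the labelled tissue were present in every sample. Snap25, a synaptic membrane fusion protein, had 10169 to 14075 normalized counts in vehicle and 8999 to 15908 in RvD6si TG, and Isl1, a transcription factor of sensory neurons, had 1165 to 1651 normalized counts in vehicle and 1064 to 1315 in RvD6si TG. Fabp7, a marker of satellite glia, had 1980 to 3472 normalized counts in vehicle and 1907 to 2861 in RvD6si TG. RvD6si replicate 15 stood apart from its group in blood cell genes: S100a8, a granulocyte gene, had 99.4, 113, 40.2, 46.6 and 2454 normalized counts in RvD6si replicates 11 to 15 and 120.4, 117, 199, 498 and 189 in vehicle replicates 1 to 5, so vehicle replicate 4 was also the highest of its group. In these bulk samples, fewer cells of a type and less RNA per cell cannot be told apart.

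In RvD6si TG, 87 genes rose and 24 fell at an adjusted p below 0.05 (edgeR quasi-likelihood test, Benjamini-Hochberg adjustment), which is 0.525% and 0.145% of the 16567 genes tested. The 5 RvD6si samples lay above all 5 vehicle samples for 83 of the genes that rose and below them for 23 of those that fell. Such separation was found for 2.48% of all genes tested in the upward and 2.4% in the downward direction. The log2 fold change had a median of 0.99 among the genes that rose and of −0.72 among those that fell, against 0.015 over all genes tested. RvD6si replicate 11 was the highest RvD6si sample in 59 of the 87 genes that rose. Without it edgeR called 0 genes, with a smallest adjusted p of 0.0507 and 2033 genes at an unadjusted p below 0.05, and DESeq2 with all samples called 909. The number of calls was 13, 12, 6, 12 and 8 without vehicle replicates 1 to 5, and 168, 68, 9 and 87 without RvD6si replicates 12 to 15. In the fit without replicate 11, all 111 genes kept their direction and an unadjusted p below 0.05, and the medians were 0.93 and −0.68. These genes were chosen with replicate 11 in the fit, and the remaining samples are the same. Their kept direction and size therefore cannot show that the calls are stable. When the smooth trend of each sample on gene length was removed, 42 of the 87 and 12 of the 24 remained called. Exons of 30 of the 111 genes overlap those of another gene, and reads shared by such exons were not counted; these genes are marked below as overlapped.

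**Figure D1:**
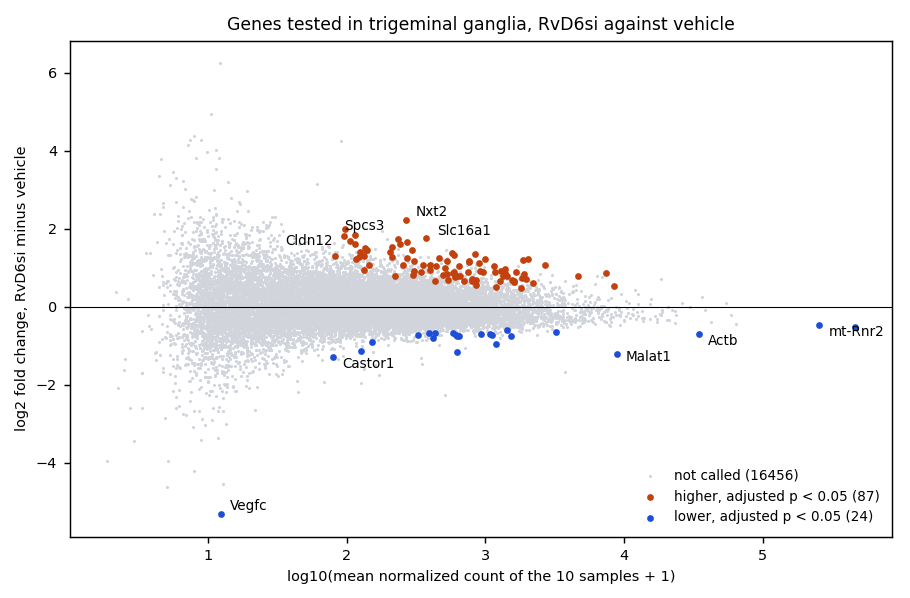
Log2 fold change of RvD6si against vehicle (y axis) by the mean normalized count of the 10 samples (x axis, log10) for the 16567 genes tested, 1 point per gene. Genes with an adjusted p below 0.05 are coloured, 87 higher and 24 lower, and a few of them are named.

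The genes with the largest increases came from many parts of the cell. Nxt2, which belongs to the mRNA export machinery, led them at a log2 fold change of 2.23 (adjusted p = 0.0127). Slc16a1 (chr3:104638668-104658462 on GRCm38) encodes MCT1, the carrier that moves lactate and ketone bodies across the membranes of glia and endothelium. It had 177, 162, 214, 192 and 109 normalized counts in vehicle replicates 1 to 5 and 838, 566, 538, 518 and 429 in RvD6si replicates 11 to 15, the order used for all genes below, with no overlap of the groups (log2 fold change 1.75 ± 0.27 (SE), adjusted p = 0.0127). Mpzl3, an adhesion protein of the myelin protein zero family, and Antxr2, a receptor for matrix proteins, rose by 1.99 and 1.83 on the log2 scale (adjusted p = 0.0346 and 0.0262). Cldn12, a claudin of cell contacts, rose by 1.68, and Baiap2l1, which links membrane curvature to actin, by 1.66 (adjusted p = 0.024 and 0.0224). Dck, the kinase of the deoxynucleoside salvage pathway, rose by 1.62, Brms1l, a subunit of a histone deacetylase complex, by 1.59, and Ints3, a subunit of the Integrator complex, by 1.47 (adjusted p = 0.039, 0.039 and 0.0262). Mfsd14b, a membrane transporter, and 1700066M21Rik, a gene without a known role, rose by 1.45 and 1.39. Of these, Mpzl3 and Baiap2l1 are overlapped. In the plot of the largest changes by sample, replicate 11 is the highest column for all of the 15 genes that rose but Mpzl3, where it is replicate 14.

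**Figure D2:**
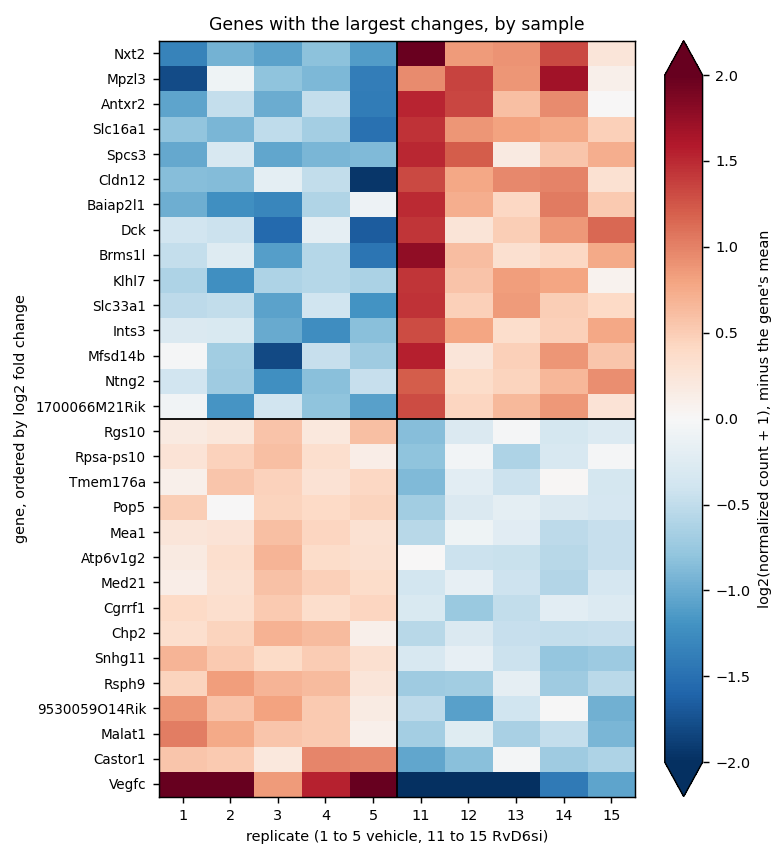
The 15 genes with the largest increases and the 15 with the largest decreases among called genes whose groups do not overlap (y axis), in the 10 samples (x axis). Colour is log2(normalized count + 1) minus the mean of the gene over the 10 samples, cut at 2 in both directions, and the vertical line separates vehicle (1 to 5) from RvD6si (11 to 15).

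Several genes that rose encode proteins of the endoplasmic reticulum (ER), the compartment where membrane and secreted proteins are made. They were put together here after their calls were seen, so their number is a description and not a test. Spcs3, a subunit of the signal peptidase, had 93, 153, 92.3, 100.4 and 104 normalized counts in vehicle and 547, 442, 217, 280.4 and 315 in RvD6si TG (log2 fold change 1.73 ± 0.30 (SE), adjusted p = 0.024). Sec62, of the protein translocation channel, had 546, 553, 535, 518 and 557 normalized counts in vehicle and 883, 665, 984, 887 and 852 in RvD6si TG (log2 fold change 0.65 ± 0.13 (SE), adjusted p = 0.0346). The vehicle samples of Sec62 lay within a narrow range, and each RvD6si sample lay above it. Reep5 shapes the tubules of the ER and was among the most counted of the genes that rose, with 5491, 5731, 5092, 5159 and 4612 normalized counts in vehicle and 12545, 8491, 9179, 9519 and 8072 in RvD6si TG (log2 fold change 0.87 ± 0.14 (SE), adjusted p = 0.0127). Its relative Reep1 and the tubule protein Rtn3 rose by 0.83 and 0.54 on the log2 scale (adjusted p = 0.0347 and 0.0394). Svip and Ube2j1, both of the pathway that removes misfolded proteins from the ER, rose by 1.35 and 0.89 (adjusted p = 0.0127 and 0.0262), and Yipf4, of the early secretory pathway, by 1.24 (adjusted p = 0.0262). Spcs3, Sec62 and Rtn3 are overlapped.

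Slc33a1, which carries acetyl coenzyme A into the ER, rose as well, with 49.4 to 86.6 normalized counts in vehicle and 151 to 312 in RvD6si TG (log2 fold change 1.49 ± 0.32 (SE), adjusted p = 0.0373). It is overlapped. Not all of the 30 genes with the largest changes had a promoter window to search. The promoter of Slc33a1 is printed because, among those that had one, it alone holds matches to 3 of the motifs searched. It is given together with the promoter of Med21, a gene that fell and that holds a CRE. Both are RefSeq windows of 300 bases around the start of the gene on GRCm38.p6, chr3:63964684-63964983 on the minus strand and chr6:146642329-146642628 on the plus strand. Capitals mark the CCAAT box (CCAAT), the E-box (CACGTG), the NRF1 motif (the longest capital run of Slc33a1) and the CRE (TGACGTCA), on either strand.
Slc33a1: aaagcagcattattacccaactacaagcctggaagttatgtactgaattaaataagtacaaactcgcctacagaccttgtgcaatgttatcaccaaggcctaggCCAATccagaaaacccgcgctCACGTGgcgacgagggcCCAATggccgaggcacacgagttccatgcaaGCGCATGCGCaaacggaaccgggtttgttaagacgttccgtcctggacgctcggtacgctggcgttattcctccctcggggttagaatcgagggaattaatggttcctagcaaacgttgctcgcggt
Med21: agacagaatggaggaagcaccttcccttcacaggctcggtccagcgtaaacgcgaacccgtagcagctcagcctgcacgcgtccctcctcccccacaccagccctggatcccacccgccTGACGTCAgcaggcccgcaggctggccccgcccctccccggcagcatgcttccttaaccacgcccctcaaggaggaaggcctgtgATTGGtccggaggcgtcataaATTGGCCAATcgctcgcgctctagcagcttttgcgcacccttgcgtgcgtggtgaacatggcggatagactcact
Exact matches were counted in 93 windows of 70 of the genes that rose, in 24 windows of 18 of those that fell, and in 14210 windows of 11114 genes tested. The CCAAT box was in 29% of the windows of genes that rose, 20.8% of those of genes that fell and 37.5% of all windows, and the E-box in 10.8%, 8.33% and 9.41%. The CRE was in 3.23%, 4.17% and 2.9%. The NRF1 motif was in 3.23% of the windows of genes that rose and 1.86% of all windows, and its 3 windows among genes that fell all belonged to Mea1. The TATA box (TATAAA) was in 6.45%, 0% and 7.66%. These shares describe letters in a window and say nothing about binding.

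Single genes of endosomes and lysosomes were likewise among those that rose, again put together after the calls were seen. The list of lysosomal genes lay the other way, with 2 of 39 higher and 7 lower at an unadjusted p below 0.05, beside 8.69% of all genes higher and 7.3% lower, and a median of −0.10. Its count of lower genes was 2 without RvD6si replicate 11, 3 without vehicle replicate 3 or RvD6si replicate 15, and 4 without vehicle replicate 5 or RvD6si replicate 12. The V-ATPase list had 2 of 19 higher and 5 lower. Vps35, the core of the retromer that returns proteins from endosomes, had 1429, 1412, 1363, 1403 and 1267 normalized counts in vehicle and 2706, 1757, 2391, 2648 and 2043 in RvD6si TG (log2 fold change 0.74 ± 0.14 (SE), adjusted p = 0.0262). Arl8b, the GTPase that couples lysosomes to kinesin, had 1557 to 1851 normalized counts in vehicle and 2245 to 2953 in RvD6si TG (log2 fold change 0.60 ± 0.12 (SE), adjusted p = 0.0281), and Pik3c3, the lipid kinase that starts autophagosomes, had 319 to 471 normalized counts in vehicle and 536 to 741 in RvD6si TG (log2 fold change 0.69 ± 0.15 (SE), adjusted p = 0.0373). The phosphatase Mtmr6 and Ankfy1, which act on the lipid that Pik3c3 makes or bind it, rose by 1.23 and 1.06 on the log2 scale (adjusted p = 0.0346 and 0.0346). The same held for Scamp1 (1.22), a carrier of recycling membranes, Chmp1b (0.82), of the ESCRT machinery, and the lysosomal proteins Lgmn (1.17), Mfsd8 (1.21) and Clcn3 (0.50), with adjusted p from 0.0312 to 0.0455. Vps35, Chmp1b and Mfsd8 are overlapped. Dync1i2, an intermediate chain of the dynein motor that carries cargo back to the cell body, had 451, 448, 528, 478 and 414 normalized counts in vehicle and 1411, 916, 941, 831 and 1182 in RvD6si TG (log2 fold change 1.18 ± 0.17 (SE), adjusted p = 0.0127). It had the smallest unadjusted p of its list and was called in 9 of the 10 fits that left a sample out.

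Genes that rose and are placed here with neurons were also put together after their calls were seen. The list of pan-neuronal markers had 8 members with a positive and 8 with a negative log2 fold change (median 0.015), and the neuronal Atp6v1g2 fell. Elavl4, an RNA-binding protein that stabilizes mRNAs of growing neurites, had 448 to 663 normalized counts in vehicle and 873 to 1801 in RvD6si TG, without overlap (log2 fold change 1.13 ± 0.23 (SE), adjusted p = 0.0346). Eno2, the neuronal enolase, had 1959, 1657, 1504, 2437 and 1097 normalized counts in vehicle and 5109, 3239, 3547, 3392 and 2814 in RvD6si TG (log2 fold change 1.06 ± 0.20 (SE), adjusted p = 0.0262), and all 5 RvD6si samples lay above the highest vehicle sample. Ncdn, known from neurite outgrowth, had 391 to 564 normalized counts in vehicle and 811 to 1606 in RvD6si TG and rose by 1.15 on the log2 scale (adjusted p = 0.0262). Glrb, the glycine receptor subunit that anchors it at synapses, had 549 to 967 normalized counts in vehicle and 1130 to 2486 in RvD6si TG, and Ntng2, a netrin anchored in the membrane, had 49.8 to 90.1 normalized counts in vehicle and 152 to 273 in RvD6si TG. Their adjusted p were 0.0363 and 0.0164. Ntng2 is overlapped. Itgb1, the beta 1 integrin that binds matrix, rose by 0.89, and Prkar2b, a regulatory subunit of protein kinase A, by 0.71 (adjusted p = 0.043 and 0.0262). Cbfb, the partner of the Runx transcription factors that set the fate of sensory neurons, had 709, 1036, 964, 1080 and 948 normalized counts in vehicle and 1879, 1648, 2003, 1975 and 1694 in RvD6si TG (log2 fold change 0.95 ± 0.15 (SE), adjusted p = 0.0127). Acvr2a, an activin receptor, rose by 1.08, and Dnajc5, the chaperone of synaptic vesicles, by 0.78 (adjusted p = 0.0262 and 0.0473).

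The genes that fell were fewer. Actb (chr5:142903115-142906754), the cytoplasmic beta actin, was the most counted protein-coding gene among them, with 40319, 40782, 42609, 45623 and 45571 normalized counts in vehicle and 23697, 21494, 30352, 28605 and 28452 in RvD6si TG (log2 fold change −0.70 ± 0.14 (SE), adjusted p = 0.0312). The lowest vehicle sample lay above the highest RvD6si sample. Cdkn1b, the cell cycle inhibitor p27, had 431, 456, 473, 456 and 596 normalized counts in vehicle and 268, 284, 335, 302 and 320.2 in RvD6si TG (log2 fold change −0.68 ± 0.14 (SE), adjusted p = 0.0346), and Cgrrf1, a RING finger protein, had 523, 500, 574, 508 and 534 normalized counts in vehicle and 322, 237, 283, 344 and 328 in RvD6si TG (log2 fold change −0.81 ± 0.15 (SE), adjusted p = 0.0262). Both lay lower in each RvD6si sample than in any vehicle sample. Rsph9, a radial spoke protein of motile cilia, Chp2, a calcineurin-like calcium-binding protein, Rgs10, which ends G protein signals, and Pop5, a subunit of RNase P, also fell (log2 fold change −1.15, −0.91, −0.70 and −0.72; adjusted p = 0.0312, 0.0346, 0.043 and 0.0312). Med21, of the Mediator complex, and Atp6v1g2, the neuronal G subunit of the proton pump of vesicles, fell (log2 fold change −0.76 and −0.76, adjusted p = 0.0224 and 0.0346), and both are overlapped. The noncoding RNAs Malat1, Snhg11 and 9530059O14Rik fell (log2 fold change −1.21, −0.96 and −1.16, adjusted p = 0.0127, 0.0373 and 0.0364), and the first 2 are overlapped. Castor1, an arginine sensor of the mTOR pathway, Mea1, known from the testis, and Tmem176a, a membrane protein of myeloid cells, fell (log2 fold change −1.30, −0.74 and −0.72, adjusted p = 0.0473, 0.0342 and 0.043). Mea1 and Tmem176a are overlapped. Vegfc, a growth factor of lymphatic vessels, had 22.2 ± 9.905 (SD, n = 5) normalized counts in vehicle and 2 reads in all in the 5 RvD6si libraries, so it was at least 6.715-fold lower when each RvD6si library is set to a floor of 3 reads. It lost its call in each of the 10 fits that left a sample out.

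Beyond the called genes, several functional classes had most of their differing members on one side. A list of genes is described here by how many of its tested members had an unadjusted p below 0.05 in each direction, beside 8.69% of all genes higher and 7.3% lower. With the length trend removed these background shares were 7.43% and 6.54%. Of the 94 lists, 85 had a higher or lower count that moved by over 1.5 times when 1 sample was left out, most of them counts of a few genes. The samples that did so are named below for some of the larger counts. No list was given a p, and the members were not called one by one unless stated. A median above that of all genes tested was found for 61 lists. Mitochondrial, ribosomal and proteasome lists were among those with the lowest medians, and lists of adhesion and guidance proteins, splicing factors and fatty acid enzymes among those with the highest.

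**Figure D3:**
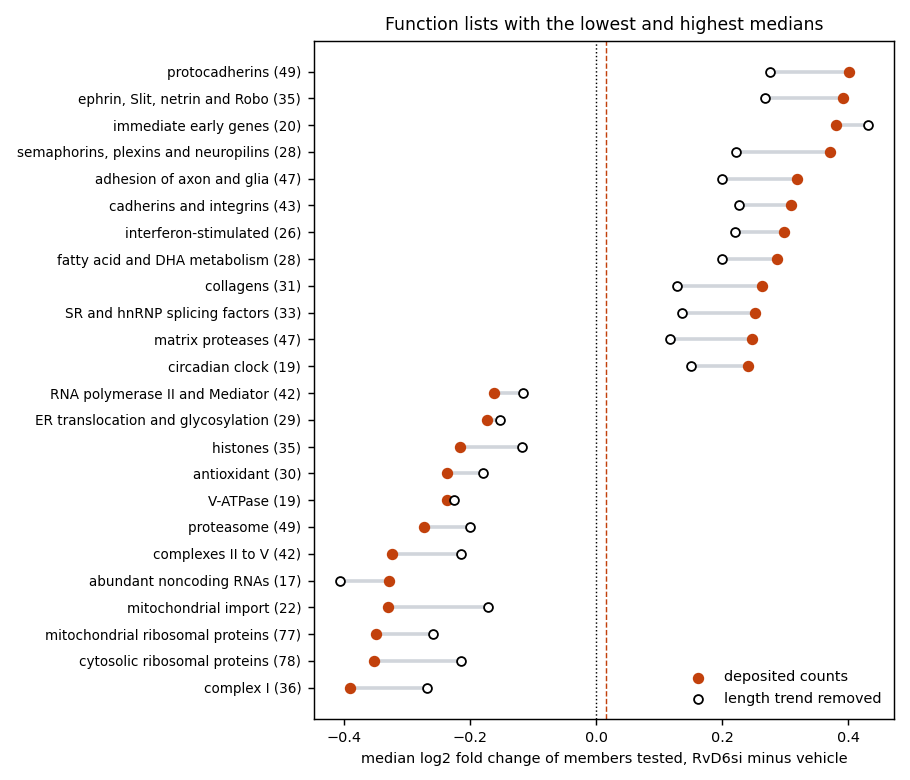
Median log2 fold change of RvD6si against vehicle (x axis) for the 12 function lists with the lowest and the 12 with the highest medians among lists with at least 15 members tested (rows, number tested in parentheses), with the counts as deposited (filled) and after the length trend was taken out (open). The vertical lines mark the median of all genes tested in either fit, and each list shown stays on the same side of it in both.

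Complex I, the entry point of electrons into the respiratory chain, had 0 members higher and 21 of 36 lower, with a median log2 fold change of −0.39 (−0.27 and 11 lower with the length trend removed). None of the 36 had an adjusted p below 0.05 in edgeR, and 7 were lower at that level in DESeq2. Ndufs7, with the smallest unadjusted p of the list, had 2221, 1991, 2261, 2412 and 2113 normalized counts in vehicle and 1168, 1703, 1385, 1447 and 1713 in RvD6si TG (log2 fold change −0.57 ± 0.14 (SE), unadjusted p = 0.000747, adjusted p = 0.0637). Its groups did not overlap, and RvD6si replicates 12 and 15 were the closest to vehicle. The other respiratory complexes together had 2 members higher and 18 of 42 lower (median −0.32; −0.21 and 12 lower with the length trend removed). Cox6b1, of complex IV, had 1522 to 1924 normalized counts in vehicle and 788 to 1428 in RvD6si TG (unadjusted p = 0.000561), and Cycs, cytochrome c, had 846 to 1037 normalized counts in vehicle and 603 to 743 in RvD6si TG (unadjusted p = 0.000716). Cycs was the member that passed the adjustment once the length trend was removed (adjusted p = 0.0368). Atp5b, the most counted member, had 16523 to 21280 normalized counts in vehicle and 13851 to 20843 in RvD6si TG and a log2 fold change of −0.18 (unadjusted p = 0.191).

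The ribosomal proteins of mitochondria had 0 members higher and 33 of 77 lower (median −0.35; −0.26 and 24 lower with the length trend removed), and the import machinery of mitochondria had 1 higher and 7 of 22 lower (median −0.33; −0.17 and 4 lower). Mrpl28 had 999, 885, 1150, 1089 and 1133 normalized counts in vehicle and 626, 733, 692, 844 and 720.1 in RvD6si TG (log2 fold change −0.54 ± 0.14 (SE), unadjusted p = 0.000932, adjusted p = 0.0665). For both lists the mean of the centred log2 CPM over members was lower in every RvD6si sample than in any vehicle sample. The length trend was not removed from the list means given here and below. Cytosolic ribosomal proteins had 0 higher and 24 of 78 lower (median −0.35; −0.21 and 10 lower with the length trend removed). Here the samples did not separate. The list mean was −0.584 in replicate 11, −0.372 in replicate 14 and −0.361 in replicate 13, but 0.157 in replicate 12 and 0.236 in replicate 15, within the vehicle range of 0.008 to 0.34. Without replicate 11 the count of lower cytosolic ribosomal proteins was 12, without replicate 14 it was 14, and without replicate 15 it was 39. Complex I was likewise lowest in replicates 11, 13 and 14 (−0.617, −0.304 and −0.319). Its mean was 0.167 in replicate 12 and 0.082 in replicate 15, against 0.111 to 0.273 in vehicle. Its count was 13 without replicate 11 and 26 without replicate 12. The other respiratory complexes had means of −0.487, −0.279 and −0.257 in replicates 11, 13 and 14. In replicates 12 and 15 their means were 0.11 and 0.115, within the vehicle range of 0.033 to 0.228. Their count of lower members was 12 without vehicle replicate 3 and 25 without RvD6si replicate 12.

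The proteasome, which degrades proteins tagged with ubiquitin, had 1 member higher and 21 of 49 lower (median −0.27; −0.20 and 14 lower with the length trend removed). Psmc5, an ATPase of its cap, had 2959, 3183, 3865, 3336 and 3351 normalized counts in vehicle and 2165, 1814, 2829, 2293 and 1829 in RvD6si TG (log2 fold change −0.61 ± 0.15 (SE), unadjusted p = 0.000531, adjusted p = 0.0604), without overlap. Psmd1 and Psmd2, the most counted members, had log2 fold changes of 0.04 and −0.10 (unadjusted p = 0.838 and 0.529). Antioxidant enzymes had 0 higher and 8 of 30 lower (median −0.24), but 2 higher and 7 lower with the length trend removed (median −0.18). The count of 8 was 5 without vehicle replicate 5 or RvD6si replicate 11. The list was led by Prdx4 with 429.7 to 605 normalized counts in vehicle and 279 to 372 in RvD6si TG and Park7 with 1942 to 2220 normalized counts in vehicle and 1450 to 1586 in RvD6si TG (unadjusted p = 0.000846 and 0.00135). The 13 chaperonin and prefoldin subunits had 4 lower and 0 higher (2 lower without vehicle replicate 5 and 7 without RvD6si replicate 13), and the 19 subunits of the V-ATPase had 5 lower, Atp6v1g2 among them, and 2 higher. With the length trend removed the chaperonin list had 5 lower and 1 higher, and the V-ATPase list 7 lower and 1 higher. The mRNAs encoded in mitochondrial DNA were 4 of 13 lower, but 0 lower and 2 higher with the length trend removed, so their side depended on that trend.

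**Figure D4:**
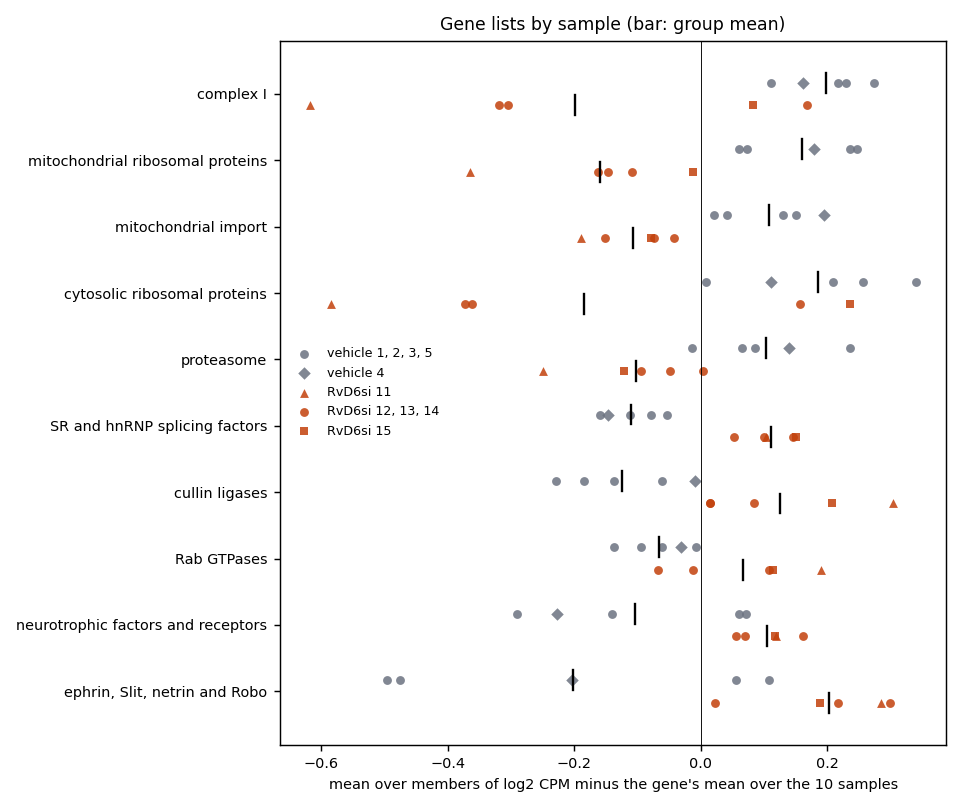
Mean over list members of the log2 CPM centred on the mean of each gene over the 10 samples (x axis), for 10 lists (rows) and each sample (points). The length trend was not removed from these means. Vehicle samples are grey and RvD6si samples orange, triangles mark RvD6si replicate 11, squares RvD6si replicate 15 and diamonds vehicle replicate 4, and black bars are group means. Mitochondrial ribosomal proteins, mitochondrial import, SR and hnRNP splicing factors and cullin ligases separate the groups, and for complex I and cytosolic ribosomal proteins replicates 12 and 15 lie in or near the vehicle range.

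On the other side, SR and hnRNP splicing factors, which choose exons and package pre-mRNA, had 10 of 33 higher and 0 lower (median 0.25), and 6 higher and 2 lower with the length trend removed (median 0.14). Hnrnpa2b1, which also carries mRNAs along axons, had 834, 750, 774, 761 and 759.9 normalized counts in vehicle and 1204, 1078, 1171, 990.1 and 1120 in RvD6si TG, without overlap (log2 fold change 0.52 ± 0.13 (SE), unadjusted p = 0.000669, adjusted p = 0.0636). The genes of cullin ubiquitin ligases and their substrate adaptors had 27 of 96 higher and 2 lower (median 0.20; 0.14, 20 higher and 3 lower with the length trend removed), and 3 members rose. Klhl7, an adaptor of cullin 3, had 116, 75.6, 116, 120 and 115 normalized counts in vehicle and 482, 266, 319.5, 308 and 187 in RvD6si TG (log2 fold change 1.52 ± 0.26 (SE), adjusted p = 0.0224). Fbxl16, an F-box protein, rose too (log2 fold change 1.28 ± 0.25 (SE), adjusted p = 0.0293). Uba3, the enzyme that activates NEDD8 for transfer to cullins, is outside the list and had 275, 288, 375, 444 and 209 normalized counts in vehicle and 1199, 610.2, 754, 811 and 748 in RvD6si TG (log2 fold change 1.37 ± 0.25 (SE), adjusted p = 0.0262). Both list means, taken from log2 CPM without removal of the length trend, separated the groups in all samples. When single samples were left out, 7 to 10 splicing factors and 21 to 25 cullin genes were higher.

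Rab GTPases, the switches of vesicle traffic, had 13 of 63 higher and 3 lower, and 13 and 4 with the length trend removed (medians 0.17 and 0.13). None was called by edgeR, and DESeq2 called 9 higher. Rab3a, of synaptic vesicles, had 491 to 805 normalized counts in vehicle and 980.3 to 1551 in RvD6si TG (unadjusted p = 0.000777), and Rab9b, of late endosomes, had 83.1 to 160.1 normalized counts in vehicle and 174 to 304 in RvD6si TG (unadjusted p = 0.000741). Both ranges were apart. Genes of fatty acid and DHA metabolism had 8 of 28 higher and 2 lower (median 0.29; 7 and 2 with the length trend removed). Elovl4, which makes very long chain fatty acids from precursors such as DHA, had 368, 401, 400.4, 410.3 and 295 normalized counts in vehicle and 966, 507, 671, 633 and 587 in RvD6si TG (log2 fold change 0.84 ± 0.18 (SE), adjusted p = 0.0364) and kept its call with the length trend removed (adjusted p = 0.0368). Enzymes and receptors of lipid mediators, the class to which resolvins belong, had 0 of 15 higher and 0 lower, and 2 lower without RvD6si replicate 15.

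Receptors and adhesion proteins of axons lay high with wider scatter. Neurotrophic factors and their receptors had 6 of 19 higher and 0 lower (5 and 0 with the length trend removed). The count of 6 was 3 without any one of vehicle replicates 3, 4 and 5 and RvD6si replicates 11 and 12, and 3 with vehicle replicate 4 and RvD6si replicate 15 both left out. Lifr, the receptor of leukaemia inhibitory factor, had 1693, 1529, 1029, 1355 and 1184 normalized counts in vehicle and 3730, 2196, 2032, 1800 and 2178 in RvD6si TG (log2 fold change 0.81 ± 0.20 (SE), unadjusted p = 0.000638, adjusted p = 0.0633), and Ret, the receptor kinase of the GDNF family, had 2247, 2220, 1487, 1902 and 1727 normalized counts in vehicle and 3414, 2291, 2910, 2494 and 2578 in RvD6si TG (log2 fold change 0.51 ± 0.16 (SE), unadjusted p = 0.00461, adjusted p = 0.117). The groups of neither gene overlapped, and neither gene passed the adjustment. Ephrins, Slits, netrins and their receptors had 7 of 35 higher and 0 lower (median 0.39), with Ntng2 as the gene called by edgeR, and 4 higher without any one of vehicle replicates 4 and 5 and RvD6si replicates 11 and 12. Unc50, a Golgi protein that the name pattern put in this list, was among those 7 (unadjusted p = 0.00179). Adhesion proteins of axon and glia had 10 of 47 higher and 2 lower (median 0.32), with Cntn1, a contactin of the node of Ranvier, at 2001 to 3256 normalized counts in vehicle and 3017 to 4613 in RvD6si TG (unadjusted p = 0.00641). Matrix proteases and their inhibitors had 10 of 47 higher and 1 lower, with Timp3 at 1204 to 1606 normalized counts in vehicle and 1734 to 3306 in RvD6si TG (unadjusted p = 0.00138). Of the immediate early genes, which report recent activity, 4 of 20 were higher and 1 lower. Their list mean was 0.166 to 0.498 in RvD6si replicates 12 to 15. In replicate 11 it was −0.41, below the vehicle range of −0.323 to −0.063. Junb had 26.5 to 46.9 normalized counts in vehicle and 61 to 145 in RvD6si TG and Egr1 53.8 to 190 normalized counts in vehicle and 140 to 333 in RvD6si TG (unadjusted p = 0.00113 and 0.00261).

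The list of ER translocation and glycosylation genes, which holds Spcs3 and Sec62, had 5 of 29 higher and 6 lower, with a median of −0.17. Autophagy genes, with Pik3c3, had 4 of 39 higher and 5 lower, and dynein and dynactin subunits, with Dync1i2, 3 of 21 and 4. The count of lower autophagy genes was 1 without vehicle replicate 5 and 3 without vehicle replicate 3 or RvD6si replicate 14. Sodium channels had 2 of 14 higher, potassium channels 5 of 71 higher and 1 lower, TRP channels 1 of 15 higher, and the 35 calcium, HCN and chloride channels 3 higher and 1 lower, with Clcn3 as the gene called. Neuropeptides had 2 higher and 5 lower of 20, but 2 and 2 with the length trend removed (median −0.11 and 0.02), and 3 lower without RvD6si replicate 11. Scg5, the chaperone of a prohormone convertase, had 4077 to 4987 normalized counts in vehicle and 2692 to 3662 in RvD6si TG (log2 fold change −0.53 ± 0.13 (SE), unadjusted p = 0.000536, adjusted p = 0.0604). Genes of nerve injury and regeneration had 3 higher and 4 lower of 27. Hspb1, a small heat shock protein of regrowing axons, had 1742 to 2078 normalized counts in vehicle and 1272 to 1460 in RvD6si TG (unadjusted p = 0.00183), and Flrt3 had 51 to 144 normalized counts in vehicle and 153 to 236 in RvD6si TG (unadjusted p = 0.00604). Of the 74 chemokine and interleukin genes 4 were higher and 2 lower, of the 26 interferon-stimulated genes 3 and 1, and of the 23 genes of antigen presentation 1 and 2. Kinesins had 1 higher and 2 lower of 35, and zinc finger genes 19 and 8 of 337. With the length trend removed, 12 zinc finger genes were higher and 16 lower, so their side depended on that trend.

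Among cell classes, myelinating Schwann cells had the most markers that differed at this level. Of 24 markers tested, 8 were higher and 3 lower, and Ugt8a (chr3:125865271-125938619) rose. This enzyme makes galactosylceramide, the main lipid of myelin, and had 1137, 1332, 1081, 1160 and 941 normalized counts in vehicle and 3757, 2733, 1777, 2809 and 2014 in RvD6si TG (log2 fold change 1.21 ± 0.23 (SE), adjusted p = 0.0262). Prx, which anchors the myelin sheath to its surroundings, had 1805, 2147, 1417, 1600 and 1910 normalized counts in vehicle and 3438, 3241, 3292, 3417 and 2424 in RvD6si TG, without overlap (log2 fold change 0.83 ± 0.21 (SE), unadjusted p = 0.0011, adjusted p = 0.0706), and Drp2, its partner, Egr2, the master regulator of myelination, Dhh and Pllp were also higher (unadjusted p from 0.0124 to 0.0176). Ncmap, S100b and Mal were lower (log2 fold change −0.49, −0.26 and −0.35; unadjusted p = 0.00343, 0.0239 and 0.0364), and Mbp, the most counted marker, had a log2 fold change of 0.10 ± 0.18 (SE; unadjusted p = 0.575). With the length trend removed 5 were higher and 4 lower, and without vehicle replicate 5 or RvD6si replicate 11 the count of lower markers was 1. The mean of the list was −0.256 to 0.061 in vehicle, 0.093 to 0.261 in RvD6si replicates 11 to 14 and −0.117 in replicate 15. Of 11 markers of non-myelinating or repair Schwann cells, 3 were higher and 0 lower, and 1 was higher without RvD6si replicate 11. The 3 were Gfap, with 125, 269, 155, 137 and 118 normalized counts in vehicle and 305, 284, 442, 429 and 376 in RvD6si TG (log2 fold change 1.19 ± 0.34 (SE), unadjusted p = 0.00244, adjusted p = 0.0953), Ngfr and L1cam (unadjusted p = 0.0178 and 0.0278). Ngfr was within the vehicle range in replicate 12 and highest in replicate 11.

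Neuronal classes showed few differences. Of 16 pan-neuronal markers 4 were higher and 1 lower, with a median log2 fold change of 0.015. The count of 4 was 2 without vehicle replicate 3 or 4, 1 without vehicle replicate 5 or RvD6si replicate 12, and 1 with both blood-rich samples (vehicle replicate 4 and RvD6si replicate 15) left out. Elavl4 was called, Elavl3, Rbfox3 and Syt1 were higher (unadjusted p = 0.0258, 0.0222 and 0.0461), and Stmn2, a tubulin regulator of growing axons, had 14267 to 16983 normalized counts in vehicle and 10972 to 12531 in RvD6si TG and was lower in each RvD6si sample (log2 fold change −0.38 ± 0.12 (SE), unadjusted p = 0.00493, adjusted p = 0.119). Peptidergic nociceptors had 0 of 11 higher and 2 lower, non-peptidergic nociceptors 1 of 15 higher and 0 lower, C-low-threshold mechanoreceptors 0 of 5 in either direction, large myelinated-fibre neurons 2 of 17 higher and 1 lower, and cold-sensing neurons 1 of 4 higher. Ret was the member higher in both the second and the fourth of these lists. Satellite glia had 0 of 12 higher and 2 lower, Apoe with 42416 to 51767 normalized counts in vehicle and 27553 to 41177 in RvD6si TG (log2 fold change −0.40 ± 0.12 (SE), unadjusted p = 0.00329, adjusted p = 0.104) and Glul, the glutamine synthetase, with 1147 to 1988 normalized counts in vehicle and 543 to 1274 in RvD6si TG (log2 fold change −0.68 ± 0.23 (SE), unadjusted p = 0.00894, adjusted p = 0.152). Kcnj10, the potassium channel that defines these cells, had a log2 fold change of 0.19 (unadjusted p = 0.246).

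Endothelial markers had 0 of 19 higher and 3 lower. Ly6c1 had 346, 531, 558, 584 and 374 normalized counts in vehicle and 288, 275, 259, 267 and 330 in RvD6si TG and did not pass the threshold (log2 fold change −0.76 ± 0.17 (SE), unadjusted p = 0.000352, adjusted p = 0.0506), and Esam, a junction protein, had 229, 469, 453, 489 and 403 normalized counts in vehicle and 199.9, 264, 184, 243 and 197 in RvD6si TG (log2 fold change −0.91 ± 0.23 (SE), unadjusted p = 0.000899, adjusted p = 0.0654). The list mean was −0.027 to 0.094 in vehicle and −0.097 to 0.003 in RvD6si TG, so the groups overlapped. Macrophage markers had 1 higher, Cx3cr1, and 1 lower, Aif1, of 19, and 4 lower without RvD6si replicate 15 (unadjusted p = 0.029 and 0.00398). Fibroblast markers had 1 higher and 3 lower of 14, but 0 and 0 with the length trend removed. Their count of lower markers was 0 without RvD6si replicate 11 and 1 without vehicle replicate 3 or RvD6si replicate 15. Mural markers had 1 higher and 1 lower of 11, and meningeal and perineurial markers 1 and 0 of 11. Markers of central oligodendrocytes and astrocytes had 2 and 0 of 10. Fewer of the defining genes of lymphocytes were measurable, since 4 T and NK markers passed the filter, with 0 in either direction, and B lineage markers had 1 higher and 1 lower of 11.

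In blood, muscle, pituitary and other classes from outside the ganglion, single samples stood apart. The mean of the 18 granulocyte genes was 3.30 in RvD6si replicate 15, against −1.25 to −0.572 in the other 4 RvD6si samples and −0.561 to 1.51 in vehicle, and 1 member, Fcnb, was higher at an unadjusted p below 0.05. Without replicate 15, 11 of the 18 genes were lower, and the median log2 fold change went from 0.96 to −1.56. With vehicle replicate 4 left out as well, 10 were lower. The 15 erythroid genes reached 3.10 in replicate 15 and 1.55 in vehicle replicate 4, and 8 were lower without replicate 15 and 6 with both left out, against 0 with all samples. Hbb-bs had 6219, 4966, 4490, 10039 and 4633 normalized counts in vehicle and 2045, 4956, 2949, 2562 and 22581 in RvD6si TG. Dividing-cell genes reached 2.05 and 1.19 in the same samples, with 0 of 23 at an unadjusted p below 0.05 in either direction. The part of these cells in the changes above was not tested. Skeletal muscle markers had 0 higher and 2 lower of 25, pituitary markers 0 of 5, with Gh, growth hormone, at 25361 normalized counts in vehicle replicate 3 and at most 4194 in the other 9 samples, adipocyte markers 0 of 4, and bone and cartilage markers 0 higher and 1 lower of 9. With vehicle replicate 4 and RvD6si replicate 15 both left out, 21 members of complex I, 35 cytosolic ribosomal proteins, 16 proteasome genes, 21 cullin genes and 6 splicing factors were on those sides at an unadjusted p below 0.05, and 10 genes were called, 9 of them among the 111.

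**Figure D5:**
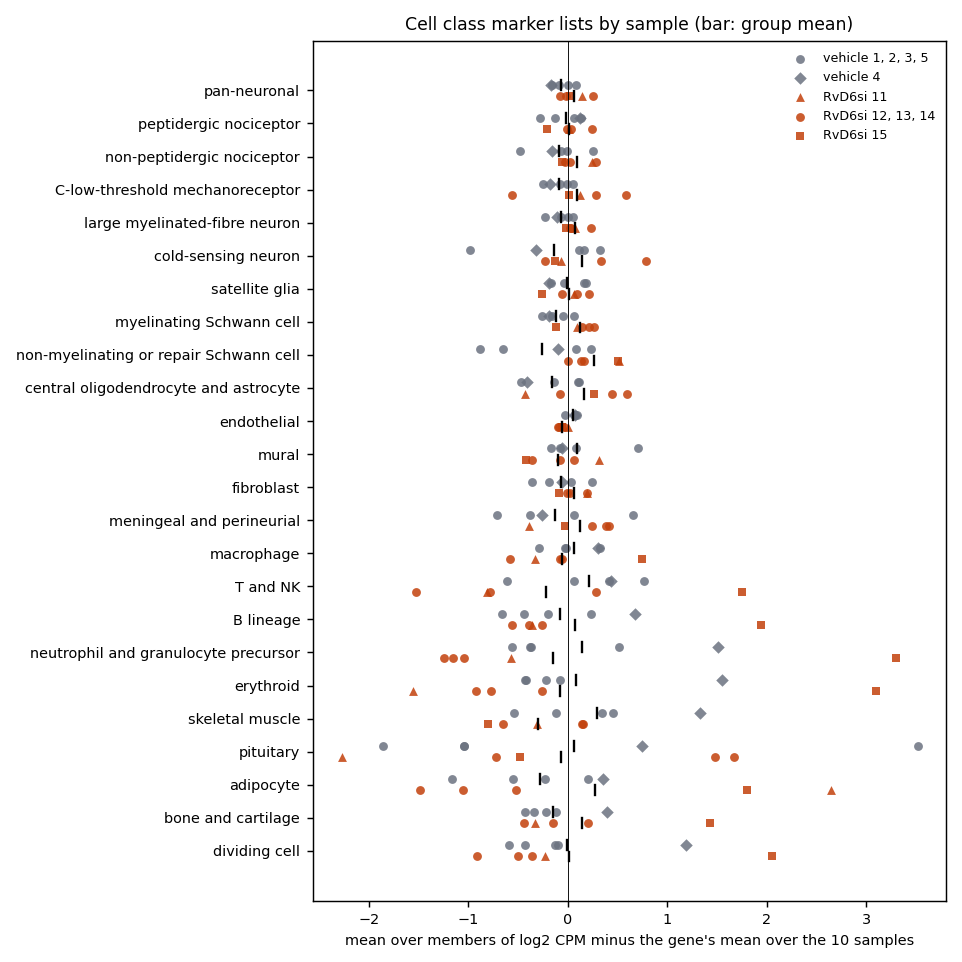
Mean over markers of the log2 CPM centred on the mean of each gene over the 10 samples (x axis), for the 24 cell classes (rows) and each sample (points; colours and shapes as in the plot of function lists by sample). Black bars are group means, and the length trend was not removed. Neuronal, glial and endothelial lists lie within 1 of 0 in every sample, and RvD6si replicate 15 reaches 3.30 for granulocyte and 3.10 for erythroid genes.

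The fold changes moved with gene length. The median log2 fold change was −0.24 in the shortest 4143 of the genes tested, where 88 were higher and 589 lower at an unadjusted p below 0.05, and 0.16 in the longest 4142, where 526 were higher and 118 lower. All 87 genes that rose were protein-coding. The 1948 pseudogenes tested had a median of −0.22 (41 higher, 207 lower), which was 0.00 with the length trend removed, and 3 of them fell: Rpsa-ps10, Gm10108 and Gm5514, which may share reads with the genes they were copied from and are uncertain. The 865 long noncoding genes had a median of −0.12, or −0.07 with the trend removed. CT010467.1 and mt-Rnr2, annotated as ribosomal RNA genes, fell (log2 fold change −0.51 and −0.48, adjusted p = 0.0217 and 0.0364). Among genes named for their lists or classes, Psmd1, Rab3a, Timp3, Junb, Prx, Dhh, Pllp, L1cam, Elavl3, Glul and Cx3cr1 are overlapped as well.

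A gene that passed against vehicle is not thereby particular to the isomer. The direct test of RvD6si against RvD6, which called 0.235% of the genes tested, called 5 of the 111 genes. Cdkn1b was lower in RvD6si than in RvD6 TG (log2 difference −0.77 ± 0.14 (SE), adjusted p = 0.0247), as were Med21 (log2 difference −0.64 ± 0.13 (SE), adjusted p = 0.049), Malat1 (log2 difference −1.04 ± 0.19 (SE), adjusted p = 0.0247), CT010467.1 (log2 difference −0.70 ± 0.09 (SE), adjusted p = 0.00168) and mt-Rnr2 (log2 difference −0.88 ± 0.10 (SE), adjusted p = 0.00126). For the other 106 the difference between the lipids did not pass the threshold, which does not show that the lipids act alike. Of the 111 genes, 108 had the same direction for RvD6 against vehicle, a comparison that shares the vehicle samples. Nxt2 was higher by 0.85 in RvD6si than in RvD6 TG on the log2 scale (95% interval 0.17 to 1.53, adjusted p = 0.423), Slc16a1 by 0.72 (0.17 to 1.27, adjusted p = 0.392) and Ugt8a by 0.34 (−0.13 to 0.82, adjusted p = 0.714).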

How the data were processed

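RNA from 15 right TG samples (5 per group) was amplified with an adapted Smart-seq2 protocol (oligo-dT priming, tagmentation, unstranded). The authors aligned the reads with Subread and counted them per gene on GRCm38 with GENCODE M22, and the deposited table holds raw read counts (Subread 1.6.5 and R 3.6.1 per the labels, featureCounts 1.5.0-p1 per the file headers). Columns of per-sample values left unused numbered 0. Symbols were taken from GENCODE M21, which matched 99.8% of 55573 identifiers.

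Counts of all 15 samples were tested with edgeR 4.0.16 (R 4.3.3; TMM, filterByExpr with a minimum count of 10 and total of 15, quasi-likelihood test, Benjamini-Hochberg) for RvD6si against vehicle. A gene was called at an adjusted p below 0.05. Normalized counts are counts over the size factors of DESeq2 1.42.0. The length trend was removed with a lowess of span 0.3 per sample, and log2 CPM used a prior count of 2. As an alternative, DESeq2 was run with all samples and with RvD6si and vehicle alone. The labels do not say which animals the replicates came from, so p-values measure the spread between these samples, which may be technical. Each list is described by its counts and median, and 94 lists (24 cell classes, 70 functions) were used. The genes named are the 15 with the largest increases and the 15 with the largest decreases among called genes with groups that do not overlap, every called member of a list, the 2 most counted members and the 2 with the smallest unadjusted p of each list, and cell class markers; any other called gene was picked with its values known. Some genes that this rule names are not reported here. Members and lists were chosen with earlier results of these data known. On simulated data with 16567 genes, 100 changed by 1 and 100 by 2 on the log2 scale for RvD6si against vehicle. Of these, 30% and 64% were called, and 4 of 98 calls were false. Each gene was drawn independently, without differences that many genes of a sample share, so these rates may not hold for the real samples. Promoters are RefSeq windows, matched to 11114 of the genes tested, and the windows of a single chromosome were left out of the search. Figures and tables used Python 3.11.15 with pandas 2.3.3 and NumPy 2.4.6.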

Additional observations from a re-analysis of the deposited data

Results flagged for a closer look

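In 248 groups of 5 samples, the highest or lowest value was set against the rest of its group, where chance gives about 1 flag in 20 groups, and 16 lay apart. RvD6si replicate 15 had a mean centred log2 CPM of 3.30 for granulocyte, 3.10 for erythroid, 2.05 for dividing-cell and 1.95 for B lineage genes. Vehicle replicate 4 had 1.55 for erythroid and 1.19 for dividing-cell genes. Vehicle replicate 2 lay apart for mural markers (0.705), vehicle replicate 5 for endothelial markers (−0.027) and for RNA polymerase II and Mediator genes (−0.158), RvD6si replicate 11 for VEGF and angiopoietin genes (0.135), and RvD6si replicate 14 for collagens (−0.184).

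Among single genes, vehicle replicate 2 lay apart with 153 normalized counts of Spcs3 (the highest of its group), 75.6 of Klhl7 and 589.9 of Pop5 (the lowest). RvD6si replicate 11 lay apart with 674 of Brms1l and 1474 of Atp6v1g2, the highest of its group for both genes.

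The 2 lipids differed in 5 of the genes called against vehicle, by the edgeR test of RvD6si against RvD6. Cdkn1b was lower by −0.77 on the log2 scale (adjusted p = 0.0247), Med21 by −0.64 (adjusted p = 0.0490), CT010467.1 by −0.70 (adjusted p = 0.00168), Malat1 by −1.04 (adjusted p = 0.0247) and mt-Rnr2 by −0.88 (adjusted p = 0.00126). For mt-Rnr2 the RvD6 samples also lay on the other side of vehicle, with a log2 fold change of 0.40 for RvD6 against vehicle. That opposition was not tested by itself, although the difference between the lipids was. It was not the only such gene, as 108 of the 111 called genes had the same direction with RvD6.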

How the results depend on the processing

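The number of genes higher and lower, 87 and 24, moved with the processing. With RvD6si and vehicle alone it was 129 and 23 (152 in all), with DESeq2 542 and 367 (909 in all, 59.6% higher against 78.4% with edgeR), with DESeq2 on those groups alone 611 and 369 (980 in all, 62.3% higher), with at least 10 counts in every sample 233 and 82 (315 in all), with no filter on low counts 80 and 9 (89 in all, 89.9% higher), and with the length trend removed 44 and 19 (63 in all). RLE normalization gave 114, removal of a trend on GC content 116, and leaving out the 10 most counted genes 108. Leaving out single samples gave 0 to 131 higher and 0 to 37 lower genes, 0 to 168 in all. With vehicle replicate 4 and RvD6si replicate 15 both left out, a choice made after seeing the data, 9 and 1 were called (10 in all). DESeq2 called 7 of the 30 genes with the largest changes between RvD6si and RvD6, against 2 with edgeR. Lists with a median above that of all genes numbered 61 of 94, and 55 to 63 in all alternatives run. No called gene turned its sign, but these fits reuse samples from which the genes were called. The median of 27 of the 94 lists did under at least 1 alternative, of 10 with the length trend removed (among them mitochondrially encoded mRNAs, from −0.10 to 0.15, and GABA and glutamate receptors, from 0.12 to −0.05) and of 24 with a single sample left out. The cause of the moved counts was not tested. No paired analysis was possible because the groups share no replicate number. GC content was taken from the longest transcript of each gene, and depth limits genes such as Vegfc to a bound.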

Other observations

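Other lists held members on both sides at an unadjusted p below 0.05. Translation initiation factors had 4 of 53 higher and 9 lower, and the members with the smallest unadjusted p, Eif5a2 and Eif4b, were both higher, at log2 fold changes of 1.04 and 0.48 (unadjusted p = 0.000558 and 0.000676), with groups that did not overlap. Glycolysis had 5 of 17 higher and 5 lower, or 2 and 4 with the length trend removed. Its count of higher genes was 2 without vehicle replicate 1 or 5 or RvD6si replicate 11. Its count of lower genes was 2 without vehicle replicate 3, 4 or 5 or RvD6si replicate 11. Hk2, a hexokinase, had a log2 fold change of 2.30 without overlap of the groups (unadjusted p = 0.00413, adjusted p = 0.112), and Ldhb, a lactate dehydrogenase subunit, had 8536 to 9820 normalized counts in vehicle and 5219 to 8103 in RvD6si TG (unadjusted p = 0.00429, adjusted p = 0.115). Coat proteins had 9 of 46 higher and 7 lower, and the count of lower genes was 3 without RvD6si replicate 11 and 4 without vehicle replicate 5. Ap1g1, an adaptor of clathrin at the Golgi, had a log2 fold change of 0.67, Cltc, the clathrin heavy chain, of 0.48, and Clta, a clathrin light chain, of −0.36 (unadjusted p = 0.00181, 0.00495 and 0.00856).

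Ubiquitin-specific proteases had 7 of 45 higher and 0 lower, GABA and glutamate receptors 6 of 31 and 0, and ALS-linked genes 5 of 23 and 0. With the length trend removed each had 1 member lower, and 4, 5 and 4 were higher. The count of ubiquitin-specific proteases was 11 without vehicle replicate 1 or 2 and 4 without vehicle replicate 5. Ubiquitin-conjugating enzymes had 7 of 32 higher and 0 lower, and MAPK and dual-specificity phosphatases 5 of 77 and 0. With the length trend removed these were 3 and 1, and 2 and 1. Collagens had 3 of 31 higher and 0 lower, nociceptor G protein-coupled receptors 3 of 25 and 0, and protocadherins 3 of 49 and 0. With the length trend removed these were 2 and 0, 2 and 0, and 3 and 0. The count of 7 ubiquitin-conjugating enzymes was 3 without RvD6si replicate 11 and 4 without vehicle replicate 1, 4 or 5. Usp11, a deubiquitinase, had 16.9 to 51.2 normalized counts in vehicle and 44.7 to 125 in RvD6si TG (unadjusted p = 0.00148), Gabra2, a GABA receptor subunit, had 716 to 966 normalized counts in vehicle and 996 to 1239 in RvD6si TG (unadjusted p = 0.00779), and Vcp, the ATPase that extracts proteins from the ER, had 945 to 1216 normalized counts in vehicle and 1317 to 1480 in RvD6si TG (unadjusted p = 0.00143). The groups of Gabra2 and Vcp did not overlap, and exons of Vcp overlap those of another gene. Tubulins, neurofilaments and their regulators had 0 of 36 higher and 4 lower. Cd63, a tetraspanin of late endosomes, had 1061 to 1273 normalized counts in vehicle and 645 to 1090 in RvD6si TG (unadjusted p = 0.00141).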
